A study of Mus musculus with 23 samples.

Results

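SCCVII colonies were compared with the macrophages of SCCVII tumours, as 2 colony libraries against 3 macrophage libraries out of the 23 RNA-seq libraries of the series. SCCVII is a mouse squamous cell carcinoma line, grown here as subcutaneous tumours in the C3H/HeJ strain. Per the labels, the macrophages were sorted from tumours as cells carrying CD45, CD11b and high F4/80 and lacking Gr1, with 3 to 4 mice pooled for each library. The colonies were such sorted macrophages plated for 9 days in a haematopoietic stem cell medium, and the labels call them macrophage progenitor colonies. The labels do not list the factors in that medium. The design text speaks of triplicate colony preparations, and any SCCVII colony library beyond these 2 was not analysed here. The other groups used for reference were 3 libraries of the SCCVII line in culture and, for HPV-negative MEER tumours of the C57/Bl6 strain, 3 colony and 3 macrophage libraries. No treatment separates these groups, and each library is labelled as 1 biological replicate preparation.

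Tissue macrophages are phagocytes that depend on signalling through the receptor Csf1r, and in tumours many of them come from blood monocytes that enter through the chemokine receptor Ccr2. The transcription factor PU.1, made from Spi1, binds a core written GAGGAA and keeps macrophage genes such as those of the receptors and of complement C1q active. Haematopoietic progenitors instead carry genes such as Kit, Cd34, Flt3 and Myb, and under colony-stimulating factors they form colonies of granulocytes and macrophages in culture.

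The label was checked against the lists of progenitor and granulocyte genes, which gave a mixed picture. Of 19 tested haematopoietic progenitor genes 9 were higher and 2 lower in colonies (8 and 0 without colony library 1 or without 2), where 29.7% of all 16238 genes tested were higher and 22.3% lower at an adjusted p under 0.05 with edgeR. Cd34 stood at 972 and 1113 CPM in the colony libraries, against 2.78 to 4.01 CPM in the macrophage libraries (CPM, the share of a library's counts on a common scale). Of 8 tested neutrophil granule genes 4 were higher and 0 lower (1 and 0 without colony library 1). Of the other defining genes, Kit, Myb, Mpo and Elane were at or near 0 in colonies. Kit had 0 and 0.03 CPM in the colony libraries, against 0.651, 0.165 and 0.444 CPM in the macrophage libraries. Myb had no count in either colony library, and Mpo and Elane, which mark granulocyte precursors, had at most 0.15 CPM in the colonies and none in the macrophages. The genes of the sort gate and of macrophages are described next. The cells are called colonies here, by their label, with no cell type implied. In bulk RNA, fewer cells of a type and less RNA per cell cannot be told apart, and this touches every result below.

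Of 16238 genes tested, 4817 (29.7%) were higher and 3614 (22.3%) lower in colonies at an adjusted p under 0.05 in edgeR's quasi-likelihood test with Benjamini-Hochberg adjustment, 51.9% in all. Both colony libraries lay above all macrophage libraries for 39.5% of the genes tested and below all of them for 36.1%, so that the groups did not overlap for 75.6%. The colony libraries held 28136747 and 31993125 expected counts and the macrophage libraries 31061554 to 32674678. The pair of colony libraries differed far more from each other than any pair of macrophage libraries, with a chi-square per gene of 255 against 6.13 to 10.8, so each colony library is shown on its own. Across genes, log levels in colony library 1 correlated with those of the macrophage libraries at 0.82 to 0.822 and with the line at 0.874 to 0.876, and those in colony library 2 at 0.781 to 0.783 and at 0.927 to 0.929, as a description over genes of the same libraries. Genes are named with their log2 difference, colonies minus macrophages. The value after ± is that difference divided by the square root of the F statistic of its test, an approximate standard error. Where a group has no or few counts, the difference depends on the prior count, and the ± value does not measure how uncertain its size is.

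The complement genes C1qb and C1qc stand for the genes that fell furthest together, and the matrix genes Nid1 and Thbs2 for those that rose, and their 250 bases before the RefSeq start are shown as the sequence of genes that moved in opposite directions (build GRCm38.p6, each on the strand of its gene). The windows are chr4:136886201-136886450 on the minus strand for C1qb, chr4:136892915-136893164 on the minus strand for C1qc, chr13:13437352-13437601 on the plus strand for Nid1 and chr17:14694263-14694512 on the minus strand for Thbs2. The annotation behind the gene coordinates puts the start further upstream for C1qc, at 136893065, and for Nid1, at 13437551, so the end of these windows that is nearest the RefSeq start lies inside the annotated gene. Capitals mark GAGGAA, or TTCCTC where the same letters lie on the other strand.
C1qb: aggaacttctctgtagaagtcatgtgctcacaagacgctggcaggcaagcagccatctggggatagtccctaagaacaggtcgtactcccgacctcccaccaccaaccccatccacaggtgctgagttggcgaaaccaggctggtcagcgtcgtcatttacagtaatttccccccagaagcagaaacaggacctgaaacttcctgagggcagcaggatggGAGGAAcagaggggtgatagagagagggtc
C1qc: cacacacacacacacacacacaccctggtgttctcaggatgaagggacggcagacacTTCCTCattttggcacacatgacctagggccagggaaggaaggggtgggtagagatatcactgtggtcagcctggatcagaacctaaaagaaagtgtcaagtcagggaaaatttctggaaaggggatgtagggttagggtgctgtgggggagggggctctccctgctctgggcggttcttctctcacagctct
Nid1: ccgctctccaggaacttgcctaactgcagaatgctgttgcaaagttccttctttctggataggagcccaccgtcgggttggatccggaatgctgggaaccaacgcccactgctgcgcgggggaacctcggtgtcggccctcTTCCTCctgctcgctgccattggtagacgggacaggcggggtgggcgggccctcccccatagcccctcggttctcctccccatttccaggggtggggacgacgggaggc
Thbs2: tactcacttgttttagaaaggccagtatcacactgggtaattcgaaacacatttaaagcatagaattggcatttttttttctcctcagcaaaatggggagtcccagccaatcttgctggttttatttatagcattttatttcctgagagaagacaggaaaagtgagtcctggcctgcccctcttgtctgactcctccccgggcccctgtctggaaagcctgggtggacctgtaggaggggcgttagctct
The GAGGAA core was found once in C1qb, 30 bases before the start, once in C1qc at 193 bases and once in Nid1 at 109 bases, and not in Thbs2. Among 32851 promoter windows of the same length, 7639 (23.3%) held it on either strand. The AP-1 site TGANTCA, searched on both strands and with no overlap with the first motif here, was in none of the 4 and in 2217 (6.75%) of all windows. Of 9 genes looked up, 6 were in the table, and C1qa, Nid2 and Prl2c2 are named only. The remaining 2 were Ctsl and Prl2c3, both higher in colonies, and neither window held GAGGAA, while that of Prl2c3 held the AP-1 site once, 209 bases before the start. These matches describe letters only.

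Of the sort-gate genes, those of CD45, CD11b and F4/80 stood below the macrophages in both colony libraries, by very different amounts, and did not pass the test. Ptprc, the gene of CD45, had 113 and 3.78 CPM in colony libraries 1 and 2, against 667, 682 and 674 CPM in the macrophage libraries. Itgam, which codes for CD11b, had 42.9 and 9.3 CPM in colonies, against 2141, 2165 and 1963 CPM in macrophages. Adgre1, the gene of F4/80, had 140.1 and 5.19 CPM in colonies, against 988, 1043 and 940.0 CPM in macrophages. The groups did not overlap for any of these, and colony library 2 was the lower one each time. None passed the test in the fit of 11 libraries, with log2 differences of −3.55 ± 2.14 for Ptprc (adjusted p = 0.19, edgeR), −6.34 ± 2.62 for Itgam (adjusted p = 0.069) and −3.78 ± 2.79 for Adgre1 (adjusted p = 0.28). Of the 5 tested gate genes, 1 was higher and 0 were lower, and that one was Ly6c1, part of what Gr1 antibodies bind, with 55.0 and 41.9 CPM in colonies, against 1.71, 1.42 and 1.64 CPM in macrophages (log2 difference 4.92 ± 0.87, adjusted p = 0.0014). One HPV-negative colony library in the same fit, the first, stood apart from the others of its group with 822 CPM of Itgam, against 7.81 and 0.332 CPM. Without it the adjusted p was 0.035 for Ptprc, 0.0026 for Itgam and 0.049 for Adgre1.

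**Figure D1:**
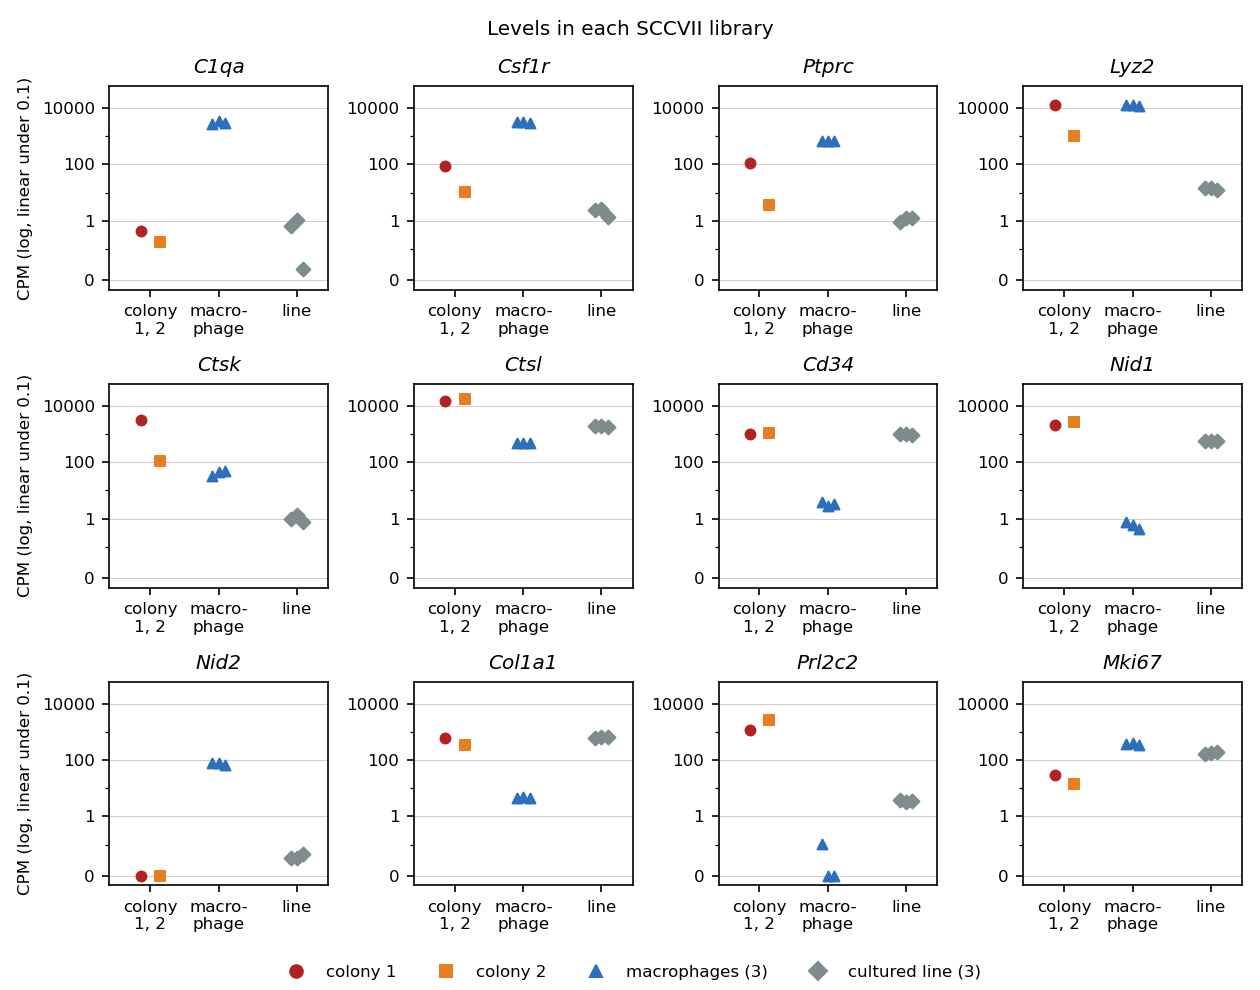
Level of 12 genes in each SCCVII library, in CPM on a log axis that is linear under 0.1, with 1 point per library: colony 1 (circle) and colony 2 (square), 3 macrophage libraries (triangles) and 3 libraries of the cultured line (diamonds). C1qa and Nid2 are near or at 0 in both colonies, Ptprc, Csf1r, Lyz2 and Ctsk differ between the colonies, and Ctsl stands at 14193 and 17206 CPM in the colonies, against 465 to 482 CPM in macrophages.

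Across 17 macrophage identity genes, 1 was higher and 4 were lower in colonies, with a median log2 difference of −2.60, against 0.07 over all genes tested. The share called lower was near the 22.3% of all genes tested. Without any of the HPV-negative libraries 0 were higher and 7 lower. Csf1r, the M-CSF receptor, had 91.0 and 10.1 CPM in colonies, against 3091, 3143 and 3009 CPM in macrophages (log2 difference −5.94 ± 2.51, adjusted p = 0.074, and 0.0078 within the 5 SCCVII libraries). Cd68, a lysosomal protein of macrophages, had 729 and 81.4 CPM in colonies, against 1152, 1173 and 1155 CPM in macrophages. Lyz2, which codes for lysozyme, had 13036 and 1031 CPM in colonies, against 12447, 13011 and 11469.6 CPM in macrophages. Colony library 1 thus held lysozyme RNA just above the highest macrophage library, and colony library 2 held 8.38% of the macrophage mean. Mertk, a receptor for dying cells, had 70.6 and 42.2 CPM in colonies, against 59.5, 51.6 and 48.5 CPM in macrophages, and the groups overlapped.

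Other macrophage genes were close to 0 in both colony libraries. C1qa, a subunit of the complement component that binds antibody and dying cells, had 0.43 and 0.18 CPM in colonies, against 2791, 3374 and 3014 CPM in macrophages (log2 difference −13.31 ± 3.89, adjusted p = 0.018). C1qb fell with it, with 0.274 and 0.24 CPM in colonies, against 2133, 2658 and 2266 CPM in macrophages (−13.15 ± 4.20, adjusted p = 0.027). C1qc had 0.391 and 0.12 CPM in colonies, against 2347, 2886 and 2506 CPM in macrophages (−13.33 ± 4.01, adjusted p = 0.021). For each of these genes the groups were apart by more than 3 orders of magnitude. With 1 colony library left out the calls of the C1q genes were lost, at adjusted p of 0.086, 0.12 and 0.091 without colony library 1 and 0.11, 0.14 and 0.12 without colony library 2, with log2 differences of −12.69 to −14.34. Of 11 complement genes tested, 1 was higher and 6 were lower, and without colony library 1 or 2 the lower ones numbered 2. Among complement genes not on this list, C1s1 (log2 difference 9.09 ± 1.03, adjusted p = 0.00013, edgeR) and Masp1 (7.13 ± 1.03, adjusted p = 0.0005) rose. The higher one on the list was C2, a protease of the classical pathway, with 89.5 and 213 CPM in colonies, against 5.62, 5.06 and 9.21 CPM in macrophages. Its call (adjusted p = 0.025) was lost without colony library 2 or any 1 of the macrophage libraries, at adjusted p of 0.062 to 0.1.

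The chemokine receptors Ccr2 and Cx3cr1 fell as well. Ccr2 had 0.274 and 0 CPM in colonies, against 1002, 1103 and 1058 CPM in macrophages (log2 difference −12.99 ± 3.40, adjusted p = 0.011, and 0.073 without colony library 2). Cx3cr1, the receptor of fractalkine, had 0.547 and 0.27 CPM in colonies, against 1493, 1667 and 1495 CPM in macrophages (−11.90 ± 2.15, adjusted p = 0.0017). The groups did not overlap for either receptor. Of 9 chemokine receptor genes 2 were higher and 4 lower, and of 16 resident-type macrophage genes 3 were higher and 9 lower. Over all genes tested 29.7% were higher and 22.3% lower, so the higher ones of both lists were below that share. Fewer chemokine receptor genes were lower with either colony library left out. Cd163, the haemoglobin scavenger receptor, had a single count in the colonies, 0.0391 and 0 CPM, against 33.5, 30.5 and 23.9 CPM in macrophages.

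Several falls ended at no count at all, so that only a bound can be given, against 3 counts over both colony libraries. Nid2, a basement membrane nidogen, had 0 and 0 CPM in colonies, against 75.2, 77.1 and 64.5 CPM in macrophages, and was at least 1419-fold lower. Ms4a4c, a membrane protein of the Ms4a family, was at least 1328-fold lower, with macrophage levels of 66.5, 67.6 and 68.8 CPM. Slfn1, of the schlafen family, was at least 674-fold lower, and Ifi44l, an interferon-induced gene, at least 322-fold lower. The calls of Ms4a4c (adjusted p = 0.024) and Slfn1 (adjusted p = 0.01) were lost without colony library 2, at 0.1 and 0.054, and that of Ms4a4c also without colony library 1, at 0.085. Tlr9, the sensor of unmethylated DNA, had 1 count in colonies, against 80.2, 87.0 and 76.7 CPM in macrophages, which gives a ratio of 4790.3 with a 95% counting interval of 859.8 to 189207. Col14a1, a fibril-associated collagen, had 0.117 and 0.06 CPM in colonies, against 621, 617 and 589 CPM in macrophages (log2 difference −12.73 ± 0.56, adjusted p = 2.2e-06).

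To describe macrophage genes in each colony library, genes were taken that stood at 50 CPM or more in all macrophage libraries. They also stood at 0.5 CPM or less in all libraries of the cultured line. Genes picked as high in macrophages tend to stand lower in any other library. A level under the macrophage mean is thus partly set by the choice and is no test. For these 199 genes, colony library 1 had a median of 7.97% of the macrophage mean, with quartiles of 1.07% and 23.1%. Colony library 2 had a median of 0.608%, with quartiles of 0.233% and 1.90%. HPV-negative colony libraries 1, 2 and 3 had medians of 22.0%, 0.531% and 0.114% of the same SCCVII macrophage mean, so a wide spread between colony libraries was seen there too. In library 1, 26 of the genes were at 50% or more of the macrophage mean and 47 were under 1%, while in library 2 the counts were 1 and 121. Lpl, which codes for lipoprotein lipase, had 1541 and 43.7 CPM in colonies, against 69.7, 86.1 and 128 CPM in macrophages, and the groups overlapped. The ratio to macrophages thus ranged from 0% to 1630.2% among these genes in library 1, and the source of this spread was not tested. For 33 genes with the reverse definition, at 50 CPM or more in the line and 0.5 or less in macrophages, the medians were 39.2% of the line mean in colony library 1 and 52.3% in library 2. That choice likewise favours values under the line mean.

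**Figure D2:**
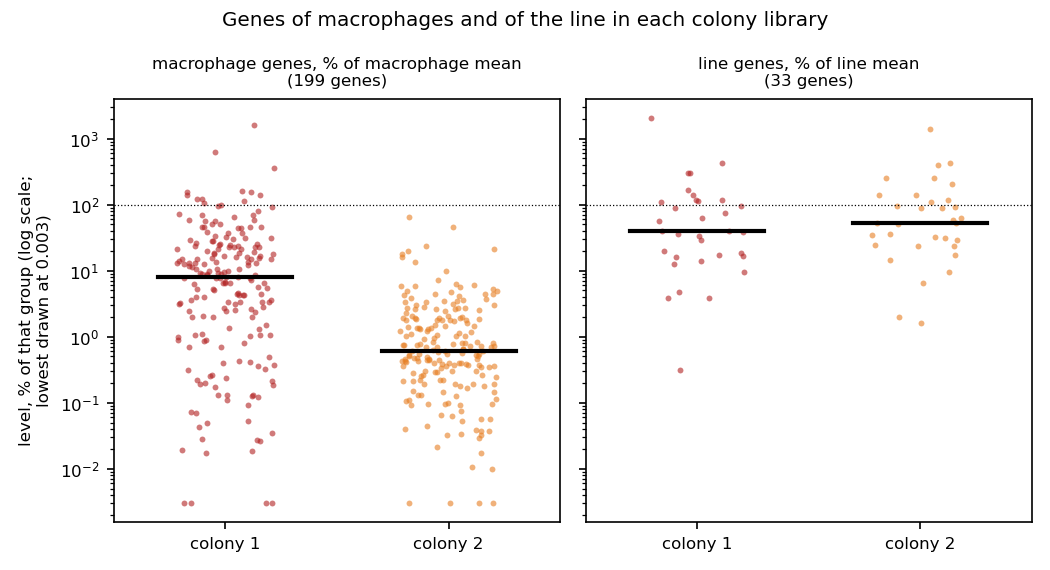
Level of each gene of 2 sets in colony libraries 1 and 2, in percent of the mean of the group that defines the set, on a log axis with values under 0.003% drawn there. The left panel has 199 genes of macrophages and the right panel 33 genes of the cultured line, black bars are medians, and the dotted line marks 100%: the macrophage genes have medians of 7.97% and 0.608%, the line genes 39.2% and 52.3%. The choice of each set by its high level in that group favours values under 100%.

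A group of genes known from lung alveolar macrophages, put together after the values were seen and so only described, was high in colony library 1. Its summed levels were 2079 and 81.5 CPM in the colonies, against 69.2 to 92.1 CPM in macrophages, so that colony library 2 lay within the macrophage range. Since its members were picked from these values, calls are not counted for this list. Chil3, a chitinase-like protein, had 316 and 9.57 CPM in colonies, against 1.23, 0.661 and 0.921 CPM in macrophages (log2 difference 7.42 ± 1.90, adjusted p = 0.0099, and 3.36 with an adjusted p of 0.12 without colony library 1). Ear2, an eosinophil-associated ribonuclease that has near-identical copies, had 161 and 9.09 CPM in colonies, against 0.377, 0.463 and 0.478 CPM in macrophages (7.57 ± 1.56, adjusted p = 0.0033, and 4.37 without colony library 1). Car4, a membrane carbonic anhydrase, had 339 and 1.05 CPM in colonies and no count in macrophages, and was at least 5028-fold higher over the group. Without colony library 1 its level rests on 1.05 CPM. Csf2rb, the shared receptor chain for GM-CSF, IL-3 and IL-5, had 513 and 32.2 CPM in colonies, against 268, 238 and 233 CPM in macrophages, and the groups overlapped.

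The progenitor list held both kinds of movement. Of its 19 tested genes 9 were higher and 2 lower in colonies, and without either colony library none was lower. Cd34, a surface protein of progenitors, vessels and mesenchymal cells, had 972 and 1113 CPM in colonies, against 4.01, 2.78 and 3.24 CPM in macrophages (log2 difference 8.28 ± 0.25, adjusted p = 6.6e-07). The cultured line had 973, 983 and 955 CPM of Cd34. Il1rl1, the receptor of IL-33, which is not on this list, had 497 and 545 CPM in colonies, against 15.2, 11.7 and 11.2 CPM in macrophages (5.35 ± 0.55, adjusted p = 8e-05), beside 530.5 to 546 CPM in the line. For both genes the colony libraries stood close to each other and to the line.

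Gata2 and Hoxa9, transcription factors on the same list, rose too. Gata2 had 23.3 and 45.0 CPM in colonies, against 0.582, 0.529 and 0.478 CPM in macrophages (log2 difference 6.00 ± 0.51, adjusted p = 2.9e-05), with 41 to 43.9 CPM in the line. Hoxa9 had 29.1 and 39.6 CPM in colonies, against 0.103, 0.264 and 0.136 CPM in macrophages (7.64 ± 1.13, adjusted p = 0.00058), with 27.2 to 29.8 CPM in the line. Ly6a, the gene of the Sca-1 antigen, was the one that the line lacked, with 461 and 329 CPM in colonies, against 12.1, 9.65 and 11.5 CPM in macrophages (5.15 ± 0.30, adjusted p = 5e-06) and 0.0855 to 0.179 CPM in the line. Procr, the protein C receptor, had 82.0 and 113 CPM in colonies, against 1.27, 1.85 and 1.88 CPM in macrophages (5.87 ± 0.40, adjusted p = 1e-05). Myb, needed by blood progenitors, was among the 2 that were lower, with no count in colonies and 0.89, 0.364 and 0.614 CPM in macrophages. The other was Tal1, with 0.508 and 0.33 CPM in colonies, against 10.9, 7.41 and 7.3 CPM in macrophages. The call of Myb (adjusted p = 0.027) was lost without colony library 1 or 2 or macrophage library 1, at adjusted p of 0.056 to 0.11, and that of Tal1 (adjusted p = 0.039) without any 1 SCCVII library or HPV-negative macrophage library, at 0.051 to 0.17. The members named that rose are known from mesenchymal and tumour cells as well as from progenitors, and the share of the line or of other non-blood cells in these values was not tested.

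Matrix and mesenchymal genes rose in both colony libraries. Of 15 fibroblast and matrix genes 13 were higher and 2 lower, with a median log2 difference of 6.67. Their summed level was 6464 and 4323 CPM in colonies, against 37.3 to 41.3 CPM in macrophages and 4556 to 4741 CPM in the line. Col1a1, the main fibrillar collagen chain, had 592 and 351 CPM in colonies, against 4.55, 4.83 and 4.44 CPM in macrophages (log2 difference 6.67 ± 0.89, adjusted p = 0.00031), and 624 to 679.7 CPM in the line. Sparc, a matrix protein of bone and stroma, had 1391 and 1024 CPM in colonies, against 5.86, 5.59 and 6.04 CPM in macrophages (7.69 ± 0.84, adjusted p = 0.00011). The members that fell were Thy1, with 3 counts in colonies, and Fap, with 1 count in colonies, and both stayed under 4 CPM in the macrophages. The call of Fap (adjusted p = 0.025) was lost without colony library 1 or 2 or macrophage library 2 or 3, at adjusted p of 0.052 to 0.15.

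Among these genes, some stood far above the line. Dcn, the small proteoglycan decorin, had 127 and 461 CPM in colonies, against 0.308, 0.132 and 0.102 CPM in macrophages (log2 difference 10.64 ± 1.5, adjusted p = 0.00043), and 3.28 to 3.77 CPM in the line. Pdgfra, a growth factor receptor of mesenchymal cells, had 312 and 785 CPM in colonies, against 0.993, 0.76 and 1.02 CPM in macrophages (9.21 ± 0.86, adjusted p = 4.8e-05), and 121 to 129 CPM in the line. Thbs2, a matrix protein that binds Cd36 and Cd47, had 3033 and 2086 CPM in colonies, against 0.342, 0.496 and 0.375 CPM in macrophages (12.61 ± 1.73, adjusted p = 0.00037), and 146 to 150.2 CPM in the line. Nid1, the other nidogen of basement membranes, had 2104 and 2623 CPM in colonies, against 0.753, 0.595 and 0.444 CPM in macrophages (11.94 ± 1.39, adjusted p = 0.00015), and 582 to 586 CPM in the line. The pair of nidogens thus moved in opposite directions, Nid1 up from under 1 CPM and Nid2 down to no count. Colonies were not compared with the line by a test here.

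Matrix metalloproteinases, which cut matrix proteins, were mostly higher: of 14 genes of this family, its Timp inhibitors and related proteases, 10 were higher and 2 lower (median log2 difference 3.30). Over all genes tested 29.7% were higher and 22.3% lower. Mmp2 had 811 and 685 CPM in colonies, against 2.05, 1.98 and 2.39 CPM in macrophages (log2 difference 8.44 ± 0.96, adjusted p = 0.00013), and 395 to 404 CPM in the line. Timp3, an inhibitor held in the matrix, had 576 and 615 CPM in colonies, against 1.16, 0.992 and 1.19 CPM in macrophages (9.05 ± 1.63, adjusted p = 0.0016), and 632 to 649.6 CPM in the line. Mmp12, the elastase of macrophages, followed colony library 1, with 1571 and 266 CPM in colonies, against 34.8, 15.3 and 22.9 CPM in macrophages (5.23 ± 0.92, adjusted p = 0.0015, and 3.46 without colony library 1). The line had 1.96 to 2.69 CPM of Mmp12.

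The largest rises began at or near no count in macrophages. Prl2c3, a proliferin of the prolactin family, had 214 and 773 CPM in colonies and no count in macrophages, and was at least 14599-fold higher against 3 counts over the macrophage group. Prl2c2, its near-identical neighbour, had 1145 and 2556 CPM in colonies and 3 counts in macrophages, a ratio of 54745 with a 95% counting interval of 18733 to 265463. Reads of these copies can be split between them, so their separate levels are uncertain. The line had 3.33 to 3.96 CPM of Prl2c2 and 0.143 to 0.199 CPM of Prl2c3. Both stood higher in the colonies than in the macrophages or the line.

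The other large rises differed in which colony library carried them. Bex1, a small signalling protein, had 176 and 18.8 CPM in colonies and no count in macrophages, at least 2879-fold higher. Tmprss11b, a membrane serine protease, went the other way between the colonies with 11.3 and 139 CPM, and was at least 2229-fold higher. Kng2, a kininogen with a near-identical copy, had 17.5 and 133 CPM and was at least 2224-fold higher. Aldh3a1, an aldehyde dehydrogenase, had 182 and 466 CPM in colonies and 1 count in macrophages, a ratio of 28774 with an interval of 5164 to 1136495. Cd248 (37.3 and 28.8 CPM), Aqp5 (22.6 and 30.7 CPM) and Lce1g (19.9 and 24.1 CPM) were alike in both colonies and at least 978, 789 and 651-fold higher than in macrophages. Cdh13, a cadherin anchored by lipid, had 346 and 338 CPM in colonies, against 0.103, 0.0331 and 0 CPM in macrophages (log2 difference 12.77 ± 1.76, adjusted p = 0.00038). Rbp4, the carrier of retinol, had 1425 and 22.1 CPM in colonies, against 0.103, 0.0992 and 0.0682 CPM in macrophages (12.90 ± 2.24, adjusted p = 0.0014, and 7.89 without colony library 1).

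Some genes stood out by their level in the colonies against both macrophages and line. Chosen by level alone, with no test, 28 genes had at least 10 CPM in both colony libraries and at most 1 CPM in every macrophage and line library. Il33, an alarm cytokine and the ligand of Il1rl1, had 106 and 116 CPM in colonies, against 0, 0.132 and 0.136 CPM in macrophages, and 0.114 to 0.261 CPM in the line. C1s1, a complement protease, had 105 and 133 CPM in colonies, against 0.103, 0.0992 and 0.444 CPM in macrophages, although reads can be shared with C1s2. Sprr1a, a cornified envelope protein, had 80.0 and 72.5 CPM in colonies, against 0.171, 0.198 and 0.171 CPM in macrophages. These levels were alike in both colony libraries. Others of the 28 were Serpinb2, Lepr, Apod, Masp1, Saa3, Mmp8 and Mfap5. Some differed widely between the colony libraries, such as Rbp4 (1425 and 22.1 CPM) and Kng2 (17.5 and 133 CPM). Several were not particular to SCCVII: HPV-negative colonies had 28.6 to 237 CPM of Il33, 276 to 630 CPM of C1s1 and 338 to 378 CPM of Sprr1a. Lepr (2.13 to 2.52 CPM) and Il13ra2 (0.0302 to 0.117 CPM) were low there.

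Among the lysosomal cathepsins, Ctsl, Ctsk and Ctsd rose. The counts of this list in the full fit, given below, are under the shares of all genes tested (29.7% higher, 22.3% lower). Ctsl, a cysteine protease of lysosomes that is also secreted, had 14193 and 17206 CPM in colonies, against 482, 481 and 465 CPM in macrophages (log2 difference 5.04 ± 0.22, adjusted p = 2.2e-06). The line had 1756 to 1892 CPM, so that both colony libraries stood above every other SCCVII library. Ctsk, the collagen-cutting cathepsin of osteoclasts, had 3119 and 109 CPM in colonies, against 32.4, 46.4 and 48.4 CPM in macrophages (5.23 ± 1.24, adjusted p = 0.0068). Ctsd had 11259 and 3831 CPM in colonies, against 2091, 1992 and 1920.1 CPM in macrophages (1.90 ± 0.45, adjusted p = 0.0065). Without colony library 1 these fell short of the test, at 1.37 (adjusted p = 0.24) for Ctsk and 0.95 (adjusted p = 0.086) for Ctsd. Of the 15 genes of the list 3 were higher and 2 lower, and without colony library 1 the counts were 1 and 5.

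TPM values, a unit that allows for gene length, were deposited by the authors and let genes be set beside each other. In colony library 1 the highest named protein genes were Fth1 at 40767 TPM, Ftl1 at 31249, Lyz2 at 14857, Ctsl at 10166, Ctsd at 8134 and Ccl6 at 7896 TPM. In colony library 2 the first 3 were Ftl1 at 14960, Fth1 at 14748 and Ctsl at 14099 TPM, and Prl2c2 stood at 5219 TPM. In the macrophage libraries Lyz2 was the highest, at 14769 to 16817 TPM.

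Iron storage genes were high in both colonies. Fth1, the heavy chain of ferritin, had 23770.5 and 7517 CPM in colonies, against 2488, 2700.0 and 2653 CPM in macrophages (log2 difference 2.57 ± 0.43, adjusted p = 0.0012, and 1.54 without colony library 1). Ftl1, the light chain, had 20549 and 8593 CPM in colonies, against 4022, 4269 and 4266 CPM in macrophages (1.79 ± 0.61, adjusted p = 0.034). The call of Ftl1 was lost without colony library 1 (1.05, adjusted p = 0.25) and without any 1 of the macrophage libraries (adjusted p of 0.081 to 0.086). Tfrc, the transferrin receptor, fell to 16.7 and 9.48 CPM in colonies, against 79.0, 86.9 and 91.1 CPM in macrophages (−2.72 ± 0.29, adjusted p = 9.4e-05). Of 11 iron and haem genes 5 were higher and 2 lower, where 29.7% of all genes tested were higher and 22.3% lower. Fewer of the list were higher with either colony library left out. Slc48a1, which moves haem out of the lysosome, rose to 603 and 426 CPM in colonies, against 71.3, 71.4 and 68.9 CPM in macrophages (2.86 ± 0.24, adjusted p = 3e-05).

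Of 13 CC chemokines 3 were higher and 2 lower, and without colony library 1 or 2 the lower ones numbered 0 and 1. The 3 and 2 of the full fit are below the shares of all genes tested, 29.7% higher and 22.3% lower. Ccl6 had 4993 and 419.8 CPM in colonies, against 46.2, 43.1 and 39.9 CPM in macrophages (log2 difference 5.96 ± 1.3, adjusted p = 0.0045, and 3.30 without colony library 1). Ccl8, a ligand of monocyte receptors, had 323 and 37.9 CPM in colonies, against 9.21, 9.85 and 9.62 CPM in macrophages (4.22 ± 0.85, adjusted p = 0.003, and 2.00 without colony library 1). Both colony libraries stood above all macrophage libraries, and library 1 carried the larger part of each rise. The other one was Ccl11, with 0.391 and 0.09 CPM in colonies and no count in macrophages, and its call (adjusted p = 0.03) was lost without colony library 1 or any 1 macrophage library, at adjusted p of 0.056 to 0.14.

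Activation genes did not move one way, beside 29.7% of all genes tested higher and 22.3% lower. The calls of the classical list in the fit of 11 libraries were near these shares and so say little about that list. Of 20 classical inflammatory genes 5 were higher and 5 lower, with 9 lower within the 5 SCCVII libraries alone and 3 higher without colony library 1. Ptgs2, the inducible prostaglandin synthase, had 159 and 449.6 CPM in colonies, against 1.2, 0.926 and 1.16 CPM in macrophages (log2 difference 8.12 ± 0.49, adjusted p = 5.6e-06), and 279 to 297 CPM in the line. Nos2, which makes nitric oxide, had 60.6 and 3.51 CPM in colonies, against 3.12, 3.21 and 3.92 CPM in macrophages, so that library 2 lay within the macrophage range and the call (adjusted p = 0.016) was lost without library 1 (log2 difference 0.05, adjusted p = 0.97). Without macrophage library 1 or 2 it was also lost, at adjusted p of 0.052 and 0.051. Of 17 alternative activation genes 2 were higher and 7 lower. Arg1, which degrades arginine, fell to 18.6 and 29.9 CPM in colonies, against 712, 689 and 640.3 CPM in macrophages (−4.81 ± 0.65, adjusted p = 0.00034). Mrc1, the mannose receptor, had 326 and 7.26 CPM in colonies, against 963, 1029.6 and 800.3 CPM in macrophages, and did not pass the test (−2.50 ± 1.74, adjusted p = 0.25). Cd274, which codes for PD-L1, had 148 and 16.4 CPM in colonies, against 21.7, 24.1 and 26.1 CPM in macrophages. One colony library was above and the other below the macrophages for Cd274 (log2 difference 1.76 ± 0.73, adjusted p = 0.071, and 0.0043 without colony library 2).

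Most members of the interferon-stimulated and MHC class II lists were lower in colonies. Of 24 interferon-stimulated genes 0 were higher and 20 lower, with a median log2 difference of −3.73. Oas2, a sensor of double-stranded RNA, fell to 0.391 and 0.87 CPM in colonies, against 100, 83.7 and 92.4 CPM in macrophages (log2 difference −7.16 ± 0.68, adjusted p = 5.3e-05). Ifi44 fell to 0.86 and 3.15 CPM in colonies, against 159.7, 161 and 165 CPM in macrophages (−6.31 ± 0.60, adjusted p = 5.2e-05). The exception in direction was Bst2, which tethers viruses to the cell, with 202 and 236 CPM in colonies, against 99.4, 100.4 and 100.2 CPM in macrophages. It missed the test in the fit of 11 libraries (1.13 ± 0.60, adjusted p = 0.14) and passed within the 5 SCCVII libraries (adjusted p = 0.0008) and without HPV-negative colony library 1 (adjusted p = 0.0041).

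All 10 MHC class II genes tested were lower in colonies, and 9 without colony library 1 or 7 without colony library 2. H2-Aa, an antigen-presenting chain, had 2.15 and 0.51 CPM in colonies, against 297, 416 and 443 CPM in macrophages (log2 difference −8.20 ± 1.59, adjusted p = 0.0024). Cd74, the invariant chain, fell to 25.8 and 4.53 CPM in colonies, against 1485, 1982 and 1959 CPM in macrophages (−6.91 ± 0.99, adjusted p = 0.00046). Ciita, the activator of these genes, had 0.586 and 0 CPM in colonies, against 27.3, 28.7 and 33.8 CPM in macrophages. The line had at most 5.97 CPM of any of these genes. Of 12 MHC class I genes 0 were higher and 3 lower (6 within the 5 SCCVII libraries), where 22.3% of all genes tested were lower, a share near that of the 3. Tap1, the peptide transporter, fell to 16.8 and 22.1 CPM in colonies, against 188, 196 and 204 CPM in macrophages (−3.34 ± 0.74, adjusted p = 0.0049).

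Cell division genes fell in both colony libraries alike. All 22 mitotic genes tested were lower, with a median log2 difference of −3.37, and 19 of them without either colony library. Their summed level was 210.0 and 236 CPM in colonies, against 1966 to 2221 CPM in macrophages and 2160 to 2185 CPM in the line. Mki67, which marks dividing cells, had 30.1 and 14.6 CPM in colonies, against 384, 400.4 and 339 CPM in macrophages (log2 difference −4.08 ± 0.84, adjusted p = 0.0033). Kif11, a spindle motor, had 2.46 and 3.9 CPM in colonies, against 74.3, 76.9 and 69.3 CPM in macrophages (−4.53 ± 0.46, adjusted p = 7.6e-05). Among 28 genes of E2F targets and DNA replication 0 were higher and 22 lower. Without colony library 1 or 2 the lower ones numbered 15. Tk1, a thymidine kinase, had 5.74 and 5.76 CPM in colonies, against 111, 129.9 and 127 CPM in macrophages (−4.42 ± 0.88, adjusted p = 0.0028). For Mki67, Kif11 and Tk1 both colony libraries lay below the macrophages and below the line.

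**Figure D3:**
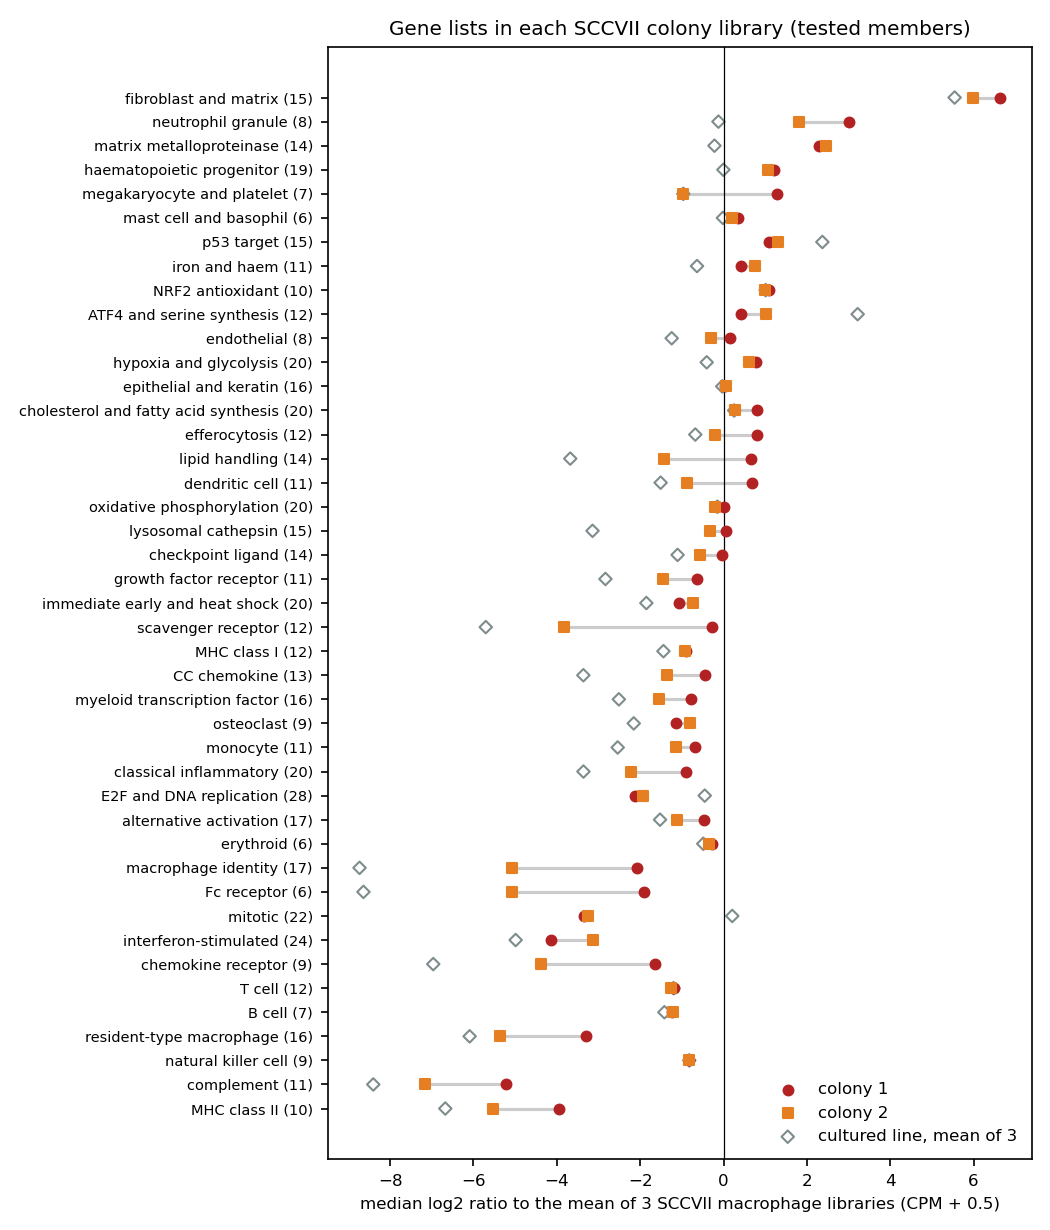
Median log2 ratio to the mean of the 3 SCCVII macrophage libraries (CPM plus 0.5) for gene lists with at least 6 tested members, in colony library 1 (circles), colony library 2 (squares) and the mean of 3 libraries of the cultured line (open diamonds). The fibroblast and matrix list stands at 6.63 and 5.99 in the colonies and 5.54 in the line, the mitotic list at −3.34 and −3.26 in the colonies and 0.21 in the line.

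Of 20 hypoxia and glycolysis genes, which include genes induced by low oxygen, 10 were higher, 0 lower and 10 did not pass the test. These counts stand beside 29.7% of all genes tested higher and 22.3% lower. Car9, a carbonic anhydrase induced under low oxygen, had 709 and 526 CPM in colonies, against 7.81, 9.36 and 8.74 CPM in macrophages (log2 difference 6.16 ± 0.32, adjusted p = 3.4e-06), and 33.2 to 37.1 CPM in the line. Adm, the vasodilator adrenomedullin, had 186 and 80.2 CPM in colonies, against 3.29, 2.08 and 3.31 CPM in macrophages (5.51 ± 0.51, adjusted p = 4.5e-05), and 1.34 to 1.85 CPM in the line. Slc2a1, a glucose transporter, rose to 853 and 792 CPM in colonies, against 266, 233 and 256 CPM in macrophages (1.70 ± 0.18, adjusted p = 0.0001). For these genes both colonies stood above both other groups, whereas Vegfa, the vessel growth factor, had 162 and 187 CPM in colonies, against 28.7, 25.3 and 30.0 CPM in macrophages, and was highest in the line with 468 to 477 CPM (2.64 ± 0.20, adjusted p = 1.9e-05).

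Of 20 cholesterol and fatty acid synthesis genes 11 were higher and 1 lower, led by Scd1, which desaturates fatty acids, at 315 and 274 CPM in colonies, against 8.7, 5.98 and 6.21 CPM in macrophages (log2 difference 5.40 ± 0.50, adjusted p = 4.8e-05). The line had 381 to 392 CPM of it. Of 10 NRF2 antioxidant genes 5 were higher and 1 lower, and Nqo1, a quinone reductase, had 71.5 and 188 CPM in colonies, against 1.06, 0.661 and 0.921 CPM in macrophages (7.20 ± 0.75, adjusted p = 8.5e-05). Its level in the line was 85.4 to 90.1 CPM. Of 20 oxidative phosphorylation genes 3 were higher and 3 lower, which is below the shares of all genes tested, 29.7% higher and 22.3% lower. Of 15 p53 target genes 12 were higher and 2 lower, with Phlda3, a p53-induced inhibitor of Akt signalling, at 138 and 165 CPM in colonies, against 6.33, 5.29 and 6.59 CPM in macrophages (4.64 ± 0.60, adjusted p = 0.00026). The line had 75.5 to 81.1 CPM of Phlda3.

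Of 20 immediate early and heat shock genes, which respond within minutes to handling and growth factors, 4 were higher, 9 lower and 7 did not pass the test. Among all genes tested 29.7% were higher, a larger share than the 4 here, and 22.3% lower. Fos had 20.7 and 14.7 CPM in colonies, against 1160.3, 1419 and 1512 CPM in macrophages (log2 difference −6.27 ± 0.48, adjusted p = 1.7e-05). Hspa1a, an inducible heat shock protein, had 1.6 and 0.36 CPM in colonies, against 60.5, 51.4 and 129 CPM in macrophages (−6.39 ± 0.87, adjusted p = 0.00036). Ier3 went the other way with 778 and 1189 CPM in colonies, against 26.5, 28.2 and 28.2 CPM in macrophages (5.15 ± 0.28, adjusted p = 3.7e-06). Macrophages were taken from tumours by sorting and colonies from culture, and the part of that handling in these values was not tested.

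Lists of other blood cells held members at or near 0 beside members that were higher in colonies. Over all genes tested 29.7% were higher and 22.3% lower, and the counts of the dendritic cell list are near these shares. Of 16 neutrophil granule genes 8 could be tested, and 4 were higher and 0 lower (1 higher without colony library 1). S100a9, an abundant neutrophil protein, had no count in any of the 5 libraries, and Lcn2, which binds bacterial siderophores, had 15.1 and 3.18 CPM in colonies and 1 count in macrophages, a ratio of 811 with an interval of 145 to 32014, whose call was lost without colony library 1 (adjusted p = 0.054) or macrophage library 1 (adjusted p = 0.05). Of 16 mast cell and basophil genes 6 could be tested and 2 were higher, Gata2 and Il1rl1, while 10 were too low to test. The list summed to 523 and 592 CPM in colonies, against 14.2 to 18.1 CPM in macrophages, and Il1rl1 made up most of it in the colonies. Of 5 tested eosinophil genes 2 were higher and 0 lower (3 and 0 without colony library 2), at a sum of 222 and 15.5 CPM in colonies, against 1.51 to 1.91 CPM in macrophages. Of 7 tested megakaryocyte and platelet genes 3 were higher and 1 lower (2 and 3 without colony library 1), at a sum of 111 and 16.7 CPM in colonies, against 49.6 to 59.1 CPM in macrophages. Of 11 tested dendritic cell genes 3 were higher and 2 lower (2 and 2 without colony library 1, and 5 and 2 without colony library 2), at a sum of 585 and 166 CPM in colonies, against 318 to 351 CPM in macrophages. The part of any such cells in the other results was not tested. Of 12 T cell genes 1 was higher and 9 lower, of 9 natural killer cell genes 0 were higher and 5 lower (3 without colony library 1 or 2), and of 7 tested B cell genes 0 were higher and 3 lower. The T cell genes summed to 5.35 and 7.44 CPM in colonies, against 9.03 to 25.6 CPM in macrophages. Of 16 epithelial and keratin genes 6 were higher and 2 lower. Krt8, a keratin of simple epithelia, had 91.7 and 123 CPM in colonies, against 17.7, 24.1 and 23.0 CPM in macrophages (log2 difference 2.31 ± 0.51, adjusted p = 0.0046), and 352 to 374 CPM in the line. The keratins Krt5 and Krt14 had no count in either colony library.

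Set side by side, with no test since each is 1 library, the colony libraries differed mostly in 1 direction. Of 9861 genes with at least 10 CPM in either, 457 (4.63%) were at least 4-fold higher in library 1 and 40 (0.406%) at least 4-fold higher in library 2. Csn2, a casein, had 894 and 0.69 CPM in colonies, against 0, 0.132 and 0 CPM in macrophages, so that its rise over macrophages (log2 difference 13.15 ± 2.52, adjusted p = 0.0023) became 3.85 with an adjusted p of 0.052 without library 1. Vwf, a clotting protein of endothelium and platelets, had 98.6 and 0.81 CPM in colonies, against 4.76, 4.89 and 4.47 CPM in macrophages, and its log2 difference of 3.38 ± 1.24 (adjusted p = 0.045) turned to −2.52 without library 1. Colony library 2 lay below every macrophage library for Vwf. The call of Vwf was lost within the 5 SCCVII libraries (adjusted p = 0.11). It was also lost without any 1 of the SCCVII macrophage libraries, the HPV-negative macrophage libraries or HPV-negative colony library 2, at adjusted p of 0.057 to 0.11. Others high in library 1 alone were Car4, Slc32a1 (167 and 0.63 CPM), Nup210 (118 and 1.02 CPM), Olr1 (102 and 0.99 CPM), Spag11b (55.6 and 0.18 CPM) and Cxcr1 (36.7 and 0.03 CPM). Kng1, a kininogen, was higher in library 2, with 4.02 and 49.4 CPM in colonies and no count in macrophages. Xist, the RNA that silences an X chromosome in female cells, had 154 and 9.45 CPM in colonies, against 371, 359 and 317 CPM in macrophages and 1.31 to 1.77 CPM in the line. Colony library 1 therefore stood at 44.0% and library 2 at 2.71% of the macrophage mean for Xist. The source of the Xist RNA in the colonies was not tested.

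**Figure D4:**
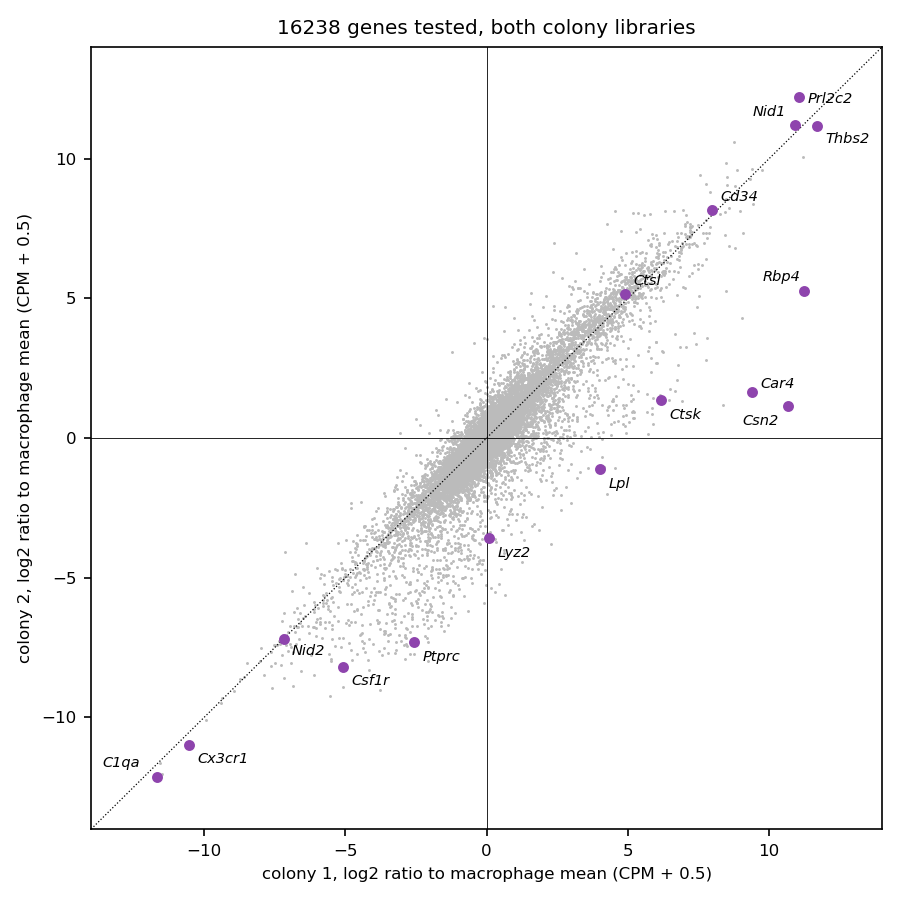
Log2 ratio of colony library 1 (x axis) and of colony library 2 (y axis) to the mean of the 3 SCCVII macrophage libraries, each from CPM plus 0.5, for the 16238 genes tested, with named genes in purple. Genes on the dotted line moved alike in both libraries, such as C1qa and Cd34, and genes below it were higher in library 1, such as Csn2 with 894 and 0.69 CPM.

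The change from macrophages to colonies was then compared between SCCVII and HPV-negative MEER in the same fit, as the difference of both log2 differences. Of 16238 genes, 2192 (13.5%) had a higher change in SCCVII and 1729 (10.6%) a lower one, 24.1% in all. Mouse strain, tumour line and the deposited table that holds the HPV-negative colonies go along with this difference and cannot be told apart from it. The level of Xist also differed widely between the macrophages of the models, and the part of the sex of the mice was not tested. Leaving out HPV-negative colony library 1 moved the counts to 3957 and 2992. Leaving out SCCVII macrophage library 1 gave 1447 and 1131, library 2 gave 1422 and 1113, library 3 gave 1465 and 1147, and HPV-negative macrophage library 1 gave 1605 and 1140.

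Crabp1, a binding protein of retinoic acid, had 439 and 392 CPM in SCCVII colonies, against 12.2, 11.5 and 11.9 CPM in SCCVII macrophages, while HPV-negative colonies had no count and their macrophages 0.686 to 1.68 CPM (difference of changes 13.47 ± 0.65, adjusted p = 0.0001, a fitted size that depends on the prior count). Tshz3, a zinc finger factor, behaved likewise with 17.6 and 23.3 CPM in SCCVII colonies, 0.239 to 0.628 CPM in SCCVII macrophages, no count in HPV-negative colonies and 0.567 to 1.17 CPM in their macrophages (13.41 ± 0.89, adjusted p = 0.00031). In Nid1, HPV-negative colonies had 0 to 1.58 CPM and their macrophages 0.324 to 0.747 CPM, beside the rise in SCCVII (11.74 ± 1.58, adjusted p = 0.0017). Nid2 kept 19.8 to 24.1 CPM in HPV-negative colonies, against 63.2 to 102 CPM in their macrophages, beside no count in SCCVII colonies (−12.40 ± 0.56, adjusted p = 4.6e-05). The nidogens therefore differed in both directions between the models.

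Some genes that rose in SCCVII colonies had another level in the HPV-negative ones. Cd34 had 15.2 to 23.5 CPM in HPV-negative colonies, against 1.96 to 2.15 CPM in their macrophages (difference of changes 5.14 ± 0.28, adjusted p = 4.6e-05). Ctsl had 1344 to 1831 CPM in HPV-negative colonies, against 1026 to 1184 CPM in their macrophages (4.47 ± 0.28, adjusted p = 6.6e-05). Ier3 had 209.9 to 272 CPM in HPV-negative colonies, against 124 to 210.0 CPM in their macrophages (4.66 ± 0.35, adjusted p = 0.00015). Ctsk went the opposite way there, with 1.15 to 11.0 CPM in colonies, against 254 to 471 CPM in macrophages (10.89 ± 1.75, adjusted p = 0.0034, and 7.02 without SCCVII colony library 1). The change was thus higher in SCCVII for Cd34, Ctsl, Ier3 and Ctsk. Other rises were seen in both models. Thbs2 had 1561 to 2263 CPM in HPV-negative colonies, against 3.3 to 90.5 CPM in their macrophages, and Prl2c2 319 to 932, against 0.421 to 4.24 CPM. For these the change was still called higher in SCCVII. C1s1 had 276 to 630 CPM, against 0.311 to 2.36 CPM, and its difference of changes (0.37) did not pass the interaction test.

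Lower changes in SCCVII included Elobl, an elongin B-like gene, with 0.234 and 0 CPM in SCCVII colonies, 0.548 to 0.959 CPM in SCCVII macrophages, 11.1 to 16 CPM in HPV-negative colonies and no count in their macrophages (−14.63 ± 1.60, adjusted p = 0.0016, a fitted size). Xist had 134, 0.41 and 0.271 CPM in HPV-negative colonies, against 0.0298 to 0.0324 CPM in their macrophages (−12.51 ± 3.87, adjusted p = 0.045, and −5.43 with 0.064 without HPV-negative colony library 1). That library thus stood far above the macrophages of its own model, and the source of its Xist RNA was not tested. Leaving out any other single library of the fit except HPV-negative colony library 2 or 3 also ended the Xist call, at adjusted p of 0.073 to 0.13. Of the 24 interferon-stimulated genes 0 had a higher and 11 a lower change in SCCVII. Ifi44 had 18.9 to 35.8 CPM in HPV-negative colonies, against 4.03 to 5.89 CPM in their macrophages (−8.67 ± 0.72, adjusted p = 0.00026), and Oas2 had 20.3 to 73.4 CPM, against 48.0 to 54.6 CPM (−7.08 ± 0.76, adjusted p = 0.00059). The mitotic list had 0 higher and 8 lower changes, and the fibroblast and matrix list 4 higher and 0 lower.

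**Figure D5:**
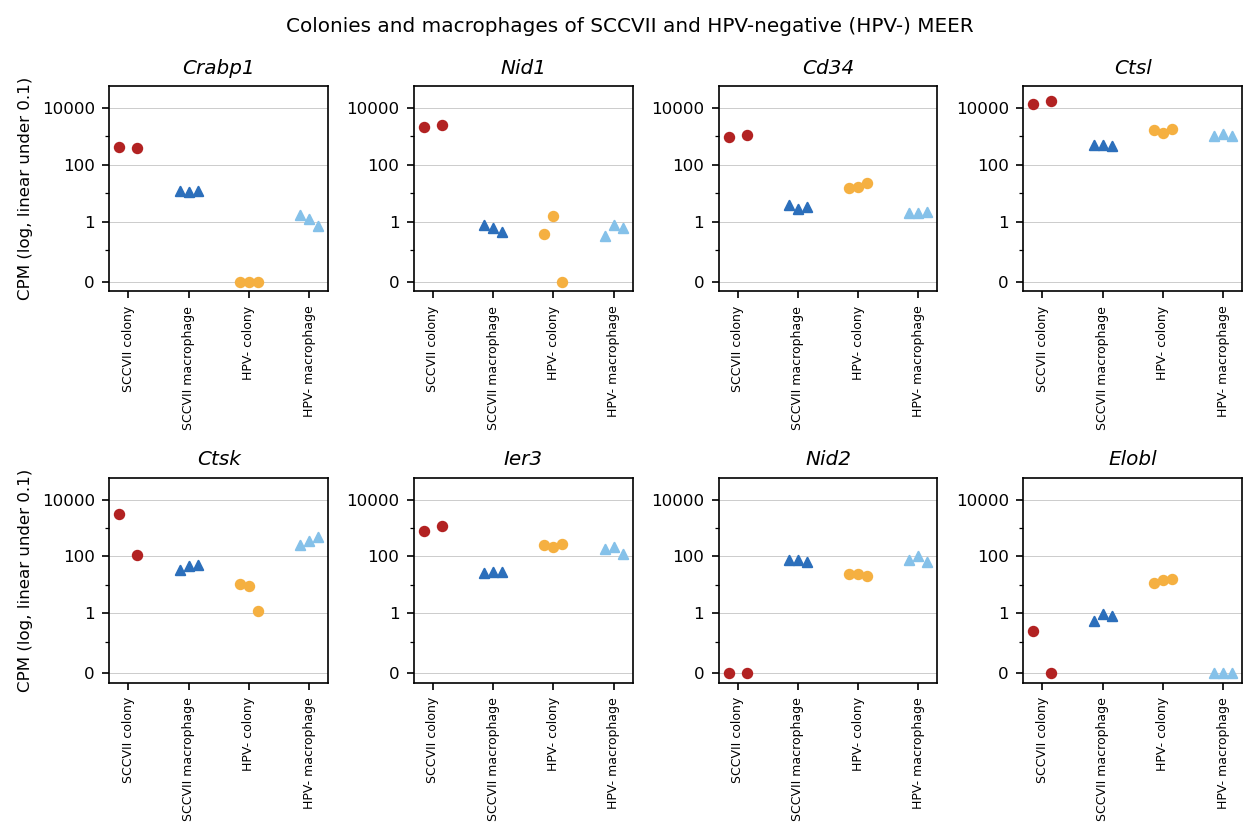
Level of 8 genes in SCCVII colonies (2 libraries) and macrophages (3), and in HPV-negative MEER colonies (3) and macrophages (3), in CPM on a log axis that is linear under 0.1, with 1 point per library. For Crabp1, Nid1, Cd34, Ctsl, Ctsk and Ier3 the difference of colonies from macrophages was higher in SCCVII, and Nid2 and Elobl had no or nearly no count in SCCVII colonies, against 11.1 to 24.1 CPM in HPV-negative colonies.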

How the data were processed

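RNA was prepared with the TruSeq Stranded mRNA kit, per the labels. Reads were processed with STAR 2.5.3a and RSEM 1.3.0 on GRCm38 (mm10), per the submitters' processing notes, while annotation, filters and strand setting were not stated there. The deposited gene tables hold RSEM expected counts and TPM of the authors for 36793 genes, of which 35243 (95.8%) were given a symbol. Of the expected counts 13.1% were not whole (tolerance 0.001), and they were rounded, by at most 0.5. RSEM divides reads between near-identical genes, so copies such as Prl2c2 and Prl2c3, Ear1 and Ear2, C1s1 and C1s2 or Kng1 and Kng2 are uncertain one by one.

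Counts were tested with edgeR 4.0.16 (R 4.3.3, limma 3.58.1) by the quasi-likelihood test with TMM scaling, after filterByExpr (minimum count 10, total 15), with a prior count of 0.125 and Benjamini-Hochberg adjusted p under 0.05 as the threshold. The fit held the 11 colony and macrophage libraries of SCCVII and HPV-negative MEER, with no covariate. Levels are CPM scaled by TMM over all 23 libraries. The difference of changes between models was an interaction in the same fit. DESeq2 1.42.0, other scaling, filters and sets of libraries, a replicate block and leaving out each library were the alternatives.

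Genes were named by a rule: the 12 largest called rises and falls at 10 CPM or more with groups apart, up to 2 rises and 2 falls per list, fixed genes, the 8 largest ratios each way between colony libraries, and the 3 largest differences between models each way. Other genes were named after their values were seen. The comparison and the gene lists were chosen with earlier results of these data known. Where a group had no count, a bound was set against 3 counts over the group, and intervals cover counting error only (95%, exact). On simulated counts for the SCCVII comparison over 16238 genes, 34 of 50 genes changed 4-fold and 44 of 50 changed 8-fold were called, 3 of 50 at 2-fold, 0 of 50 at 1.5-fold, and 2 of 16038 unchanged genes. The simulation gave each gene the same spread in every group and placed changes only in genes expressed in macrophages. The real colony libraries differed far more from each other than the macrophage libraries, so these rates may not hold for the real comparison. The labels call each library a biological replicate preparation but do not say whether the colony libraries came from separate cultures or animals, and p-values measure the spread between these libraries.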

Additional observations from a re-analysis of the deposited data

Results flagged for a closer look

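The colony change differed between SCCVII and HPV-negative MEER by the interaction test in 3921 genes, 2192 with a higher and 1729 with a lower change in SCCVII. Among the genes described, the log2 difference of changes was 13.47 for Crabp1, 13.41 for Tshz3, 11.74 for Nid1, 10.89 for Ctsk, 5.14 for Cd34, 4.66 for Ier3 and 4.47 for Ctsl. It was −14.63 for Elobl, −12.51 for Xist, −12.40 for Nid2, −8.67 for Ifi44 and −7.08 for Oas2.

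Other genes with a difference were matrix, surface and metabolic genes. Mmp2 had 2.74 to 20.6 CPM in HPV-negative colonies, against 7.91 to 29.9 CPM in their macrophages, with a difference of changes of 9.37. Dcn had 1.32 to 15.1 CPM in HPV-negative colonies, against 1.06 to 7.04 CPM in their macrophages, with a difference of 9.87. Nos2 had 0.543 to 2.2 CPM in HPV-negative colonies, against 37.9 to 39.3 CPM in their macrophages, with a difference of 7.83 that was 4.67 without SCCVII colony library 1. Ly6a was higher in the colonies of both models, with 451 to 768 CPM in HPV-negative colonies, against 79.3 to 129 CPM in their macrophages, and a difference of 2.43. Itga6, the integrin alpha 6 chain, had 27.5 and 80.6 CPM in SCCVII colonies, against 329 to 350.1 CPM in SCCVII macrophages, while HPV-negative colonies had 212 to 471 CPM and their macrophages 268 to 328 CPM, a difference of −2.89. Tfrc had 58.4 to 83.4 CPM in HPV-negative colonies, against 63.9 to 85.7 CPM in their macrophages, with a difference of −2.55. Mouse strain, tumour line and deposited table cannot be told apart in any of these, and the part of the sex of the mice was not tested.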

How the results depend on the processing

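Of 120 gene results, 120 kept their direction and their side of the threshold with relative log expression scaling and with no filter on low counts, and 116 with all 23 libraries in the fit. Leaving out each library in turn gave 4058 to 5401 genes higher and 2590 to 4780 lower in colonies, and for the difference between models 1422 to 3957 higher and 1113 to 2992 lower changes. DESeq2 gave 2838 lower changes for that difference, and a minimum of 1 CPM gave 91 genes at least 4-fold higher in colony library 2. Without colony library 1 the log2 difference was −0.32 for Mertk, −1.10 for Lpl, −2.92 for Csf2rb, −2.52 for Vwf and −0.54 for Cd274, each positive with both libraries, while without colony library 2 these were 0.39, 4.01, 1.04, 4.37 and 2.60, and without colony library 1 16 other results missed the threshold. Lyz2 was at −3.57 without colony library 1 and at 0.0648 without colony library 2, where 11 results missed the threshold. With 1 colony library left, that library is assumed to vary like the other groups.

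With the replicate number as a block, the counts were 2721 higher and 1763 lower in colonies and 9 and 2 for the difference between models, Mertk was at −0.0271 and Csf2rb at −0.98, and 34 other gene results missed the threshold. The labels do not say that the numbers pair libraries, and same-numbered libraries deviated with correlations of 0.02 and 0 in SCCVII and 0.16 and −0.14 in HPV-negative MEER. With 2 colony libraries and a biological coefficient of variation of 40.2%, small changes are not detectable at this number of libraries. The causes of these movements were not tested.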
